A study of Mus musculus with 4 samples.

Results

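The imprinted fetal growth genes are 10 genes (Igf2, H19, Dlk1, Meg3, Peg3, Mest, Grb10, Plagl1, Ndn and Igf2r) chosen by symbol, and they were read here in whole kidneys of mouse embryos with and without Hnf4a in the nephron lineage. Of the 10 symbols, 8 had a row of their own among the 22662 named genes that were present and marked OK in every table. The other 2, H19 and Meg3, stood only in rows with a joint name, H19 with Mir675 and Meg3 with Mir1906-1 and Mir770. These 2 joint rows are described by their joint names and are left out of the counts of members. The series held 4 RNA sequencing libraries of E18.5 kidneys of mixed strain, 2 control (Hnf4a c/+ with Six2GFPcre) and 2 mutant (Hnf4a c/c with Six2GFPcre). Six2GFPcre is a Cre recombinase expressed in nephron progenitors, so that only these cells and the nephron cells they form lose the conditional gene, while stroma, vessels and ureteric bud keep it. All 4 kidneys carried the Cre, and the controls also had 1 conditional allele, so neither group is wild type. The labels do not say whether libraries came from separate or pooled embryos, and p-values measure only the spread between these libraries.

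Imprinted genes are transcribed from the copy inherited from 1 parent, under DNA methylation marks that are set in the germ line and differ between the parental copies. Many imprinted genes act on fetal growth. Igf2, Dlk1, Peg3, Mest, Plagl1 and Ndn are expressed from the paternal copy, and H19, Meg3, Igf2r and, in most tissues, Grb10 from the maternal copy. In the kidney Igf2 is known as a growth factor of the progenitor and stromal compartments, and its overexpression is a feature of Wilms tumour, an embryonal kidney tumour.

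None of the 8 members with a row of their own passed the test between mutant and control kidneys. FPKM (fragments scaled to transcript length and library size) was compared as log2(FPKM + 1) with limma over 13287 genes, and a call needs a Benjamini-Hochberg adjusted p under 0.05. With limma, 0 of 8 members passed, 0 of 8 had an unadjusted p under 0.05, and the smallest adjusted p among them was 0.72, for Mest. Over all genes tested, 21 passed, which is 0.158% (0.0452% higher and 0.113% lower in the mutant), and 7.24% had an unadjusted p under 0.05 (2.67% higher and 4.57% lower). The median log2 change of the 8 members was -0.09, beside 0.02 over all genes tested. Of the members, 2 changes were above 0 and 6 below, and over all genes tested 7343 were above and 5944 below. Among the 6, Grb10 (-0.0046) and Plagl1 (-0.02) were close to 0 and changed sign with scaling to the sum of named genes. Mutant and control libraries did not overlap in 5 of the 8 members, 2 higher and 3 lower in the mutant, while over all genes tested 39.8% did not overlap, 22.7% higher and 17.1% lower. In 2 of the 8, Ndn and Peg3, the change was larger than both differences between replicates, beside 24.6% of all genes tested.

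Hnf4a itself was at 89.3 and 84.6 FPKM in the controls and 87.1 and 78.5 FPKM in the mutants. Since the labels do not say which exons the conditional allele loses, this gene-level FPKM does not check the genotypes. Markers of the proximal tubule, the nephron segment where Hnf4a acts, summed to 307 to 361 FPKM over 7 genes in control and 123 to 126 in mutant libraries, and Vil1 was the member of that list that passed the threshold. Nephron progenitor markers (6 of 6 tested, 0 called) summed to 152 to 194 FPKM in control and 175 to 184 in mutant libraries. Endothelial markers summed to 328 and 328 against 324 to 331 FPKM, and macrophage markers to 103 to 115 against 102 to 120 FPKM. Ddx3y, a Y-linked gene, was at 27.7 FPKM in control replicate 1 and 26.4 FPKM in mutant replicate 1, whereas Xist, the RNA of the inactive X chromosome, was at 81.0 and 74.0 FPKM in the replicates numbered 2. The replicate number coincides with this sex-linked pattern, and no read totals are in the tables, so the absolute depth is unknown.

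By level in FPKM, which is scaled to transcript length, the 10 rows spanned from the most abundant transcripts of the kidney to moderate ones. The H19,Mir675 row ranked between 28 and 54 among the 22662 named genes, Igf2 between 79 and 162, and Dlk1, the lowest, between 5736 and 8557. The ranges of the 4 libraries put the H19,Mir675 row (272 to 322 FPKM) above Igf2 (185 to 231), Igf2 above Mest (110 to 172), Mest above Grb10 (89.8 to 98.2) and Grb10 above Ndn (57.7 to 68.1). Ndn and Peg3 (47.6 to 58.0) overlapped. Plagl1 (41.8 to 47.5) lay just under Peg3. The Meg3,Mir1906-1,Mir770 row (35.3 to 50.4) overlapped Plagl1 above it and Igf2r (30.0 to 40.5) below it, and Dlk1 (12.0 to 21.9) lay under all others.

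**Figure D1:**
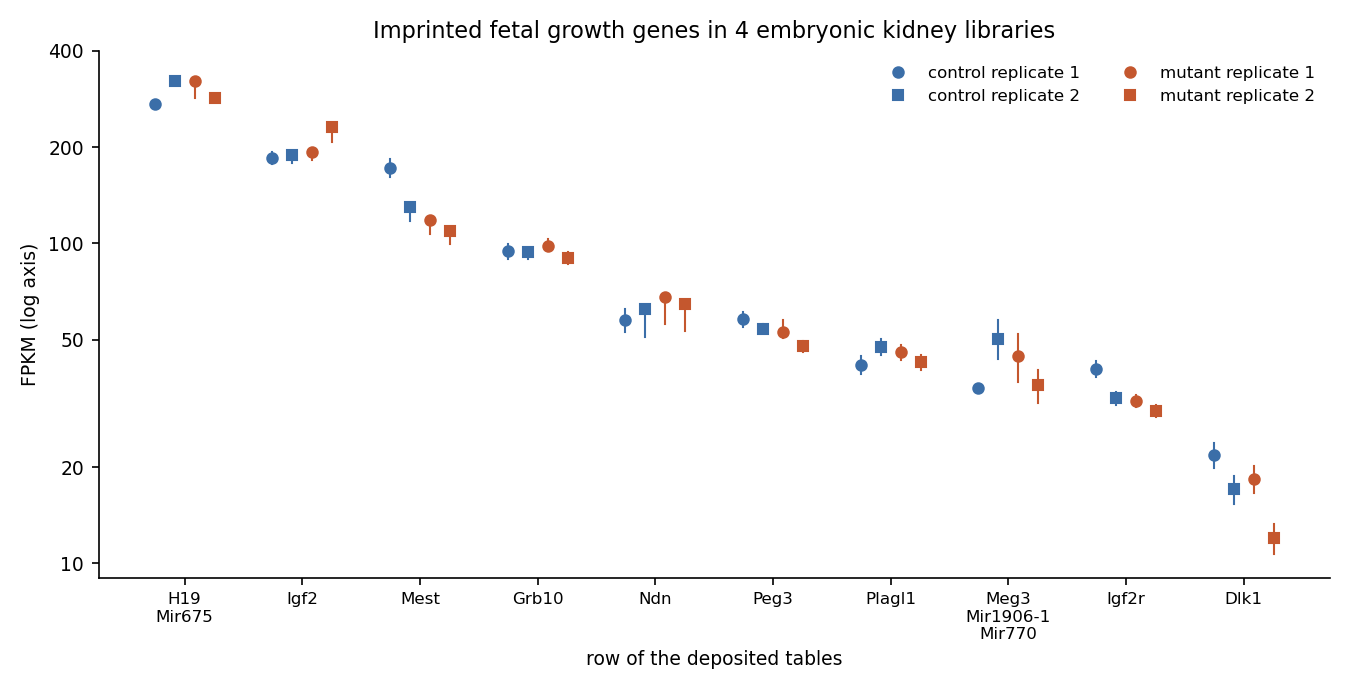
FPKM on a log axis of the 10 rows that hold the imprinted fetal growth genes, in order of mean level, with 1 point per library (blue control, orange mutant; circle replicate 1, square replicate 2) and, as a vertical line, the interval deposited with each value; the intervals of the H19 row in 3 libraries and of the Meg3 row in control replicate 1, which reach far above the axis, are not drawn. Mest and Igf2r are highest in control replicate 1, Dlk1 is lowest in mutant replicate 2 at 12.0 FPKM, and Igf2 is highest in mutant replicate 2 at 231 FPKM.

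Igf2, the paternally expressed insulin-like growth factor that drives fetal growth, was at 185 and 189 FPKM in the controls and at 193 and 231 FPKM in the mutants. Both mutant libraries lay above both controls, and mutant replicate 2 stood apart from the other 3. Means were 187 ± 2.75 FPKM in controls and 212 ± 27.4 FPKM in mutants (each mean is given ± SD, n = 2), and the log2 change was 0.17 (SE 0.11; limma adjusted p = 0.76). The difference between the mutant replicates, 0.26 on the log2 scale, was larger than that change. Without mutant replicate 2 the log2 change was 0.04, and without mutant replicate 1 it was 0.30. In that library the deposited FPKM of 231 also lay above the upper bound of its own interval, 208 to 229. Values outside their own interval, on either side, made up 7.5% of the rows above 0 of that table and 6.67% and 6.5% of those of control replicate 2 and mutant replicate 1, with 0 in control replicate 1. The Igf2 locus of the tables (mm9 chromosome 7, 149836672 to 149846940) had the same bounds in all 4 libraries. Igf2os, an opposite-strand transcript whose locus overlaps it, was listed at 0 in all 4.

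H19 lies on the same chromosome (mm9 chromosome 7, 149761433 to 149764051), produces a maternally expressed long noncoding RNA, and shares enhancers with Igf2 under a control region bound by CTCF. Its locus also yields miR-675, so that the tables give the 2 names together. The mature miRNAs of that row, from RefSeq (GRCm38.p6), are shown with the seed, bases 2 to 8, in capitals because the row cannot be split between the host RNA and the miRNA.
mmu-miR-675-5p: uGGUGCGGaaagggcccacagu
mmu-miR-675-3p: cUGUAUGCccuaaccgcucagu
The H19,Mir675 row was at 272 and 321 FPKM in the controls and at 322 and 286 FPKM in the mutants. The groups overlapped, with control replicate 1 lowest and mutant replicate 1 highest. The means were 296 ± 34.6 and 304 ± 25.6 FPKM, a log2 change of 0.04 (SE 0.12; limma adjusted p = 0.94). Its deposited intervals were wide, from 0 to 2426 FPKM in control replicate 1, 275 to 2423 in control replicate 2 and 243 to 2139 in mutant replicate 2, and narrow in mutant replicate 1 alone, 285 to 313 FPKM, where the FPKM lay above the upper bound. The ratio of Igf2 to the H19,Mir675 row within a library was 0.682 and 0.59 in the controls and 0.599 and 0.811 in the mutants. These ratios overlapped, with a difference of 0.14 on the log2 scale (exact two-sided permutation test, p = 0.67, adjusted p = 0.67 over 3 ratios, where 2 against 2 libraries cannot give a p below 0.333).

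Igf2r, the maternally expressed receptor that carries Igf2 to the lysosome for breakdown, was at 40.5 and 32.8 FPKM in the controls and at 32.3 and 30.0 FPKM in the mutants. Control replicate 1 was high, and control replicate 2 and mutant replicate 1 were nearly equal, so the groups barely separated. The means were 36.6 ± 5.45 and 31.1 ± 1.63 FPKM, 85.0% of control, a log2 change of -0.22 (SE 0.13; limma adjusted p = 0.76). The difference between the control replicates was 0.3, larger than the change, and the change was -0.07 without control replicate 1 and -0.37 without control replicate 2. Igf2 to Igf2r, the ratio of ligand to clearing receptor, was 4.58 and 5.77 in the controls and 5.97 and 7.72 in the mutants. Both mutant ratios were above both control ratios, with a log2 difference of 0.4, and the exact two-sided permutation test gave p = 0.333, the smallest it can give, and an adjusted p of 0.67 over the 3 ratios. This difference was 0.22 without mutant replicate 2 and 0.23 without control replicate 1, and at most 0.59 with another library left out.

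The Igf2r locus (mm9 chromosome 17, 12875271 to 12962572) overlaps that of Airn, a paternally expressed noncoding RNA that starts inside Igf2r, runs on the opposite strand and silences the paternal Igf2r copy. Airn was at 9.32 and 13.6 FPKM in the controls and at 18.55 and 23.5 FPKM in the mutants. Both mutant libraries were above both controls. Its mean was 184% of control, a log2 change of 0.84 (SE 0.22) that was larger than both replicate differences (0.5 and 0.33), with a limma adjusted p of 0.48 over all genes. The libraries are not described as stranded, so reads in the stretch where the 2 loci overlap cannot be assigned to either strand with certainty. The Airn intervals were also wide, 5.02 to 13.6 and 7.3 to 15.3 FPKM in the controls and 9.19 to 20.3 and 13.4 to 26.1 in the mutants, so that the upper bounds of the controls lie within the mutant intervals. Slc22a2, an organic cation transporter of the proximal tubule that is imprinted in placenta and lies in the same domain, was at 25.4 and 17.4 against 9.17 and 7.86 FPKM, 39.8% of control (log2 change -1.22, SE 0.22; limma adjusted p = 0.23).

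The start regions of these transcripts are shown because imprinting marks are placed on CpG dinucleotides. Each run is the 250 bases before the RefSeq start (GRCm38.p6), 5′ to 3′ on the strand of the gene, with every CpG in capitals.
Igf2r, chr17:12769707-12769956, minus strand: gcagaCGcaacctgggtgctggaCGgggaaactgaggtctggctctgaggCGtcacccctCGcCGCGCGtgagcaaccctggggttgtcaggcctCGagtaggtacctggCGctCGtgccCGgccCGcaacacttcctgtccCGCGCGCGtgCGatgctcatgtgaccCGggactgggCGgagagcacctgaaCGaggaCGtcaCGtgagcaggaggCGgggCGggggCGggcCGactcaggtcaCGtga
Airn, chr17:12741061-12741310, plus strand: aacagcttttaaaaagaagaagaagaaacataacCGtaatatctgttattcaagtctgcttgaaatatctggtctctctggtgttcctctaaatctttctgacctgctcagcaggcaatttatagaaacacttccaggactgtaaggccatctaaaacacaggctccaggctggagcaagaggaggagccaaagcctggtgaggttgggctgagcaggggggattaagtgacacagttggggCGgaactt
Mest upstream start, chr6:30733256-30733505, plus strand: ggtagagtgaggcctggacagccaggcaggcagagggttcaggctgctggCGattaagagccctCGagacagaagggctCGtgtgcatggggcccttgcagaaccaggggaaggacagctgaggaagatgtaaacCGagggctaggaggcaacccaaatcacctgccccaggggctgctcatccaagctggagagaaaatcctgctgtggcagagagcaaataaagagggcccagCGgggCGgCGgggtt
Mest main start, chr6:30737800-30738049, plus strand: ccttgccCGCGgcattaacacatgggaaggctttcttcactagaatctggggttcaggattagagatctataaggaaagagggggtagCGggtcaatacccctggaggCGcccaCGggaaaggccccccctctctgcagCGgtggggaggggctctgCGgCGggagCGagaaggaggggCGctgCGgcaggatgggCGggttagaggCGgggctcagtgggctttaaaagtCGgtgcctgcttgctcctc
The Igf2r window held 27 CpG and the Airn window 2, where the median over 32817 windows of that length was 6. The Mest windows shown held 7 and 14. Bases after the start were not counted, and whether any window holds an imprinting mark was not checked. These counts therefore do not place the marks. Of 16 windows for 9 members (H19 had none in the table), 12 held more than the median of 6. The letters CAAAGTCCA, a motif of HNF4 proteins, were searched on both strands and found in 0 of the 16 windows and in 0.384% of all windows. Direct repeats of the nuclear receptor motif, and the motif of CTCF, were each in 0 of 16 and in 0.0335% of all, and AANATGGC, the motif of YY1, was in 0 of 16 and in 3.9% of all. A motif not found says only that these letters are not in these windows. TGCCGC, the motif of the imprint-maintaining zinc finger protein ZFP57, was in 4 of the 16 windows, among them 1 of Meg3, 1 of Plagl1 and 2 overlapping windows of Mest, and in 8.68% of all.

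Mest, which encodes a membrane enzyme of the alpha/beta hydrolase fold expressed in fetal mesoderm, had the largest change of the 8 members. It was at 172 and 130 FPKM in the controls and at 118 and 110 FPKM in the mutants. Both mutant libraries were under both controls, with control replicate 1 well above the rest. The means were 151 ± 30.2 and 114 ± 5.96 FPKM, 75.4% of control, a log2 change of -0.39 (SE 0.16; limma unadjusted p = 0.061, adjusted p = 0.72). The control replicates differed by 0.41, more than the change. Without control replicate 1 the change was -0.19, and without control replicate 2 it was -0.59. In control replicate 1 the assembled Mest locus (mm9 chromosome 6, 30673514 to 30698466) was also longer than in the other libraries, where it started at 30683505. Its part in the high FPKM of that library was not tested. Mest overlaps Copg2, a coatomer subunit gene that converges with it, which was at 108 and 113 against 130 and 115 FPKM (log2 change 0.14, SE 0.09; limma adjusted p = 0.76). The Copg2 change was smaller than the difference between its mutant replicates, 0.18. In mutant replicate 1 its FPKM lay above the upper bound of its own interval, 114 to 129. As for Igf2r and Airn, reads where the 2 loci overlap cannot be assigned to either strand with certainty. The miRNA of a Mest intron, Mir335, had a row of its own listed at 0 in all 4 tables, and so had Mir483 in Igf2. MiRNAs are not polyadenylated once mature, so these zeros say nothing of their levels.

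**Figure D2:**
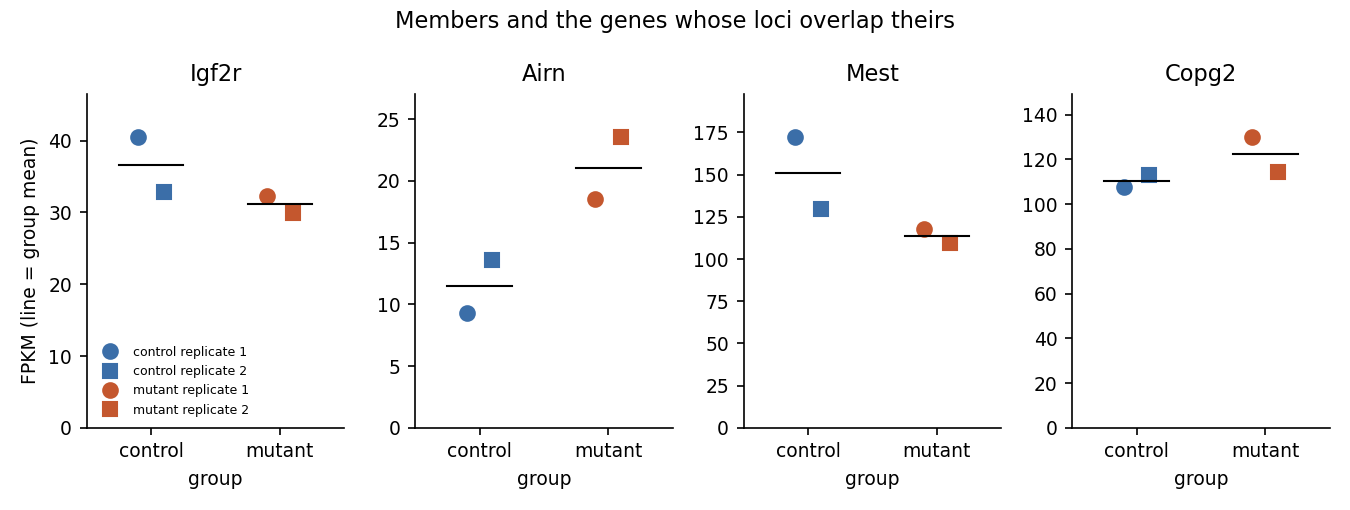
FPKM in each library (points) with group means (lines) for Igf2r and Mest and for Airn and Copg2, the genes above 0 FPKM whose loci overlap theirs; each axis starts at 0. Igf2r and Mest are lower in both mutant libraries and Airn and Copg2 higher in both. Only the change of Airn was larger than both of its differences between replicates. In Mest control replicate 1, at 172 FPKM, stands apart.

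Dlk1, a paternally expressed membrane protein with EGF repeats that holds back differentiation, was at 21.9 and 17.0 FPKM in the controls and at 18.3 and 12.0 FPKM in the mutants. The groups overlapped, and replicate 1 was above replicate 2 in both. The means were 19.5 ± 3.43 and 15.2 ± 4.47 FPKM, 78.0% of control, a log2 change of -0.36 (SE 0.24; limma adjusted p = 0.76) within a difference of 0.57 between the mutant replicates. Without mutant replicate 2 the log2 change was -0.07, without mutant replicate 1 it was -0.64, without control replicate 1 -0.18 and without control replicate 2 -0.53. The Dlk1 locus had the same bounds in all 4 tables (mm9 chromosome 12, 110691032 to 110701546).

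Meg3, the maternally expressed noncoding RNA of the Dlk1 domain, stood in a row with 2 miRNA genes (mm9 chromosome 12, 110779205 to 110809939). Their mature RNAs, from RefSeq (GRCm38.p6) with seeds in capitals, share no seed with each other or with miR-675.
mmu-miR-770-5p: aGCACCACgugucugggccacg
mmu-miR-770-3p: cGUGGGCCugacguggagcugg
mmu-miR-1906: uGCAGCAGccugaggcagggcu
The Meg3,Mir1906-1,Mir770 row was at 35.3 and 50.4 FPKM in the controls and at 44.4 and 36.1 FPKM in the mutants. The groups overlapped, with control replicate 1 lowest, and the log2 change was -0.07 (SE 0.21; limma adjusted p = 0.93). In control replicate 1 the deposited interval ran from 0 to 4828 FPKM, in the other 3 libraries from at lowest 31.8 to at highest 57.4. Dlk1 to this row gave ratios of 0.621 and 0.338 in the controls and 0.413 and 0.333 in the mutants. These overlapped (log2 difference -0.3; exact two-sided permutation test, p = 0.67, adjusted p = 0.67 over 3 ratios). Without control replicate 1, whose Meg3 interval is so wide, the log2 difference was 0.14. Rian, another noncoding RNA of the domain, in a row with AF357359, was at 23.8 and 31.2 against 42.9 and 23.5 FPKM.

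Grb10, the maternally expressed adaptor that binds insulin and IGF1 receptors and restrains growth, was at 94.6 and 93.7 FPKM in the controls and at 98.2 and 89.8 FPKM in the mutants. The mutant libraries lay on either side of the controls. The means were 94.2 ± 0.651 and 94.0 ± 5.95 FPKM, a log2 change of -0.0046 (SE 0.08; limma adjusted p = 0.99), whose sign changed with scaling to the sum of named genes (0.03). Grb10 was the member whose values spanned least over the 4 libraries, 0.13 on the log2 scale. Its locus (mm9 chromosome 11, 11830501 to 11937423) had the same bounds in every table.

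Among the regulators of transcription and of the cell cycle, Plagl1 and Peg3 encode zinc finger proteins and Ndn encodes necdin, a MAGE family protein that restrains proliferation. Plagl1 was at 41.8 and 47.5 FPKM in the controls and at 45.7 and 42.5 FPKM in the mutants. Both mutant values lay between the controls, and the log2 change was -0.02 (SE 0.1; limma adjusted p = 0.98), which was 0.02 with scaling to the sum of named genes. Peg3 was at 58.0 and 54.1 FPKM in the controls and at 52.8 and 47.6 FPKM in the mutants. Both mutant libraries were lower, with a log2 change of -0.16 (SE 0.09; limma adjusted p = 0.76) that just exceeded the larger replicate difference of 0.14. Without mutant replicate 2 it was -0.085, in size under the remaining difference of 0.0998 between the control replicates. The assembled Peg3 locus differed by group at its 3′ end, starting at 6656610 and 6656525 of mm9 chromosome 7 in the controls and at 6658670 in both mutants, and its part in the Peg3 values was not tested. Ndn was at 57.7 and 62.4 FPKM in the controls and at 68.1 and 64.6 FPKM in the mutants. Both mutant libraries were higher, with a log2 change of 0.14 (SE 0.08; limma adjusted p = 0.76) that exceeded the larger replicate difference of 0.11. Without control replicate 1 it was 0.087, under 0.11 but above the remaining difference of 0.075 between the mutant replicates. The Ndn locus (mm9 chromosome 7, 69493162 to 69494813) had the same bounds in all 4 tables, and that of Plagl1 (chromosome 10) ended at 12851501 in all and started between 12810520 and 12810593.

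**Figure D3:**
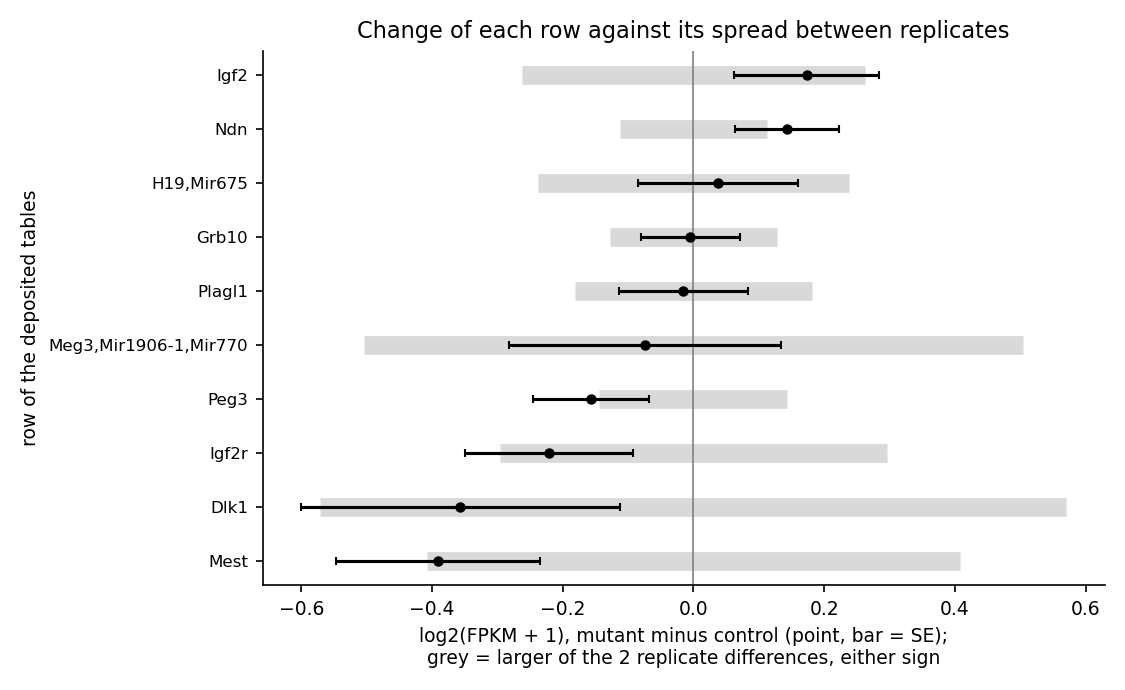
Log2 change from control to mutant of log2(FPKM + 1) for the 10 rows (points, bars are the SE of limma), over a grey band that spans the larger of the 2 differences between replicates in either sign. The points of Ndn (0.14) and Peg3 (-0.16) lie just outside their bands, and the others, Mest at -0.39 included, lie within.

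Differences between replicates ran in the same direction in both groups for most members. Of the 8, 5 (Dlk1, Peg3, Mest, Grb10 and Igf2r) were higher in replicate 1 of both groups and 1 (Igf2) was higher in replicate 2 of both. Over all genes tested, 23.3% were higher in replicate 1 of both groups and 31.6% in replicate 2 of both. Igf2, Mest, Dlk1 and Igf2r differed between replicates of a group by more than they differed between the genotypes. Because the replicate number coincides with the sex-linked pattern, a difference between sexes and other spread between replicates cannot be told apart. Markers of renal stroma, a compartment without the Cre, summed over 8 genes to 530 to 587 FPKM in control and 462 to 526 FPKM in mutant libraries. The sum was highest in control replicate 1 and lowest in mutant replicate 2, as Mest, Dlk1, Peg3 and Igf2r were. Of the 8 genes, Meis1 and Postn were instead highest in mutant replicate 1, at 35.3 and 60.5 FPKM, and the others followed the sum. How many of all genes share this order was not counted. Of these 8 markers, 0 passed with limma and their median log2 change was -0.16. The part of the stroma in the members' values was not tested. In whole kidneys fewer cells of a type and less RNA per cell cannot be told apart.

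Dissection can bring along adrenal gland or muscle, tissues known for imprinted transcripts. Of 7 adrenal markers with a row of their own, 5 were under 1 FPKM in every library, with Cyp21a1 and Cyp11b1 at 0, and the sum of 18.2 to 25.5 FPKM in control and 20.1 to 28.6 in mutant libraries came mostly from Akr1b7. Skeletal muscle markers summed to 7.97 to 11.5 FPKM in control and 5.44 to 8.48 in mutant libraries, with Myod1 at 0 in all. Liver markers summed to 42.3 to 51.9 and 39.3 to 84.3 FPKM, highest in mutant replicate 2, where Igf2 was also highest. Alb was at 21.1 FPKM in that library and at most 1.11 in the others. Ttr was instead highest in control replicate 1, at 14.7 FPKM, and the remaining liver markers were highest in mutant replicate 2. The part of liver RNA in the Igf2 value was not tested. Markers of gonad and mesonephric duct summed to at most 1.17 FPKM, and erythroid markers to 26.4 to 35.8 and 35.2 to 38.0 FPKM.

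The genes with profiles closest to those of the members whose values spanned at least 0.4 on the log2 scale were found by the distance between centred log2(FPKM + 1) values over the 4 libraries, among genes with a mean of at least 10 FPKM. For Igf2r they were Mlycd, Myh9 and Dusp4 (distances 0.0188, 0.0246 and 0.0251), and for Mest Tex2, Myadm and Ltbp4 (0.0503, 0.0504 and 0.0586). For Dlk1 they were Mkrn1, Col5a1 and Plekhg5 (0.125, 0.139 and 0.146). For the Meg3 row they were Fut10, Fam86 and Ndufa5 (0.0561, 0.0631 and 0.0667). None of the 12 was another imprinted fetal growth gene. With 3 genes named per member from so many candidates, this was likely in advance. It says nothing of likeness between members. The candidates were 8829 genes (8830 for the Meg3 row) with 4 values each, and these profiles are a description.

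In the list of other imprinted genes, 33 of 42 had a row of their own and 26 were tested. With limma 0 of the 26 passed, and 6 had an unadjusted p under 0.05, 1 higher and 5 lower, beside 7.24% of all genes tested (2.67% higher and 4.57% lower). The median log2 change was -0.0048, with 13 above and 13 below 0. The most abundant were Gnas, which encodes a G protein subunit (270 and 291 against 281 and 262 FPKM), Cdkn1c, a cell cycle inhibitor (234 and 177 against 183 and 167 FPKM), and Cd81, a tetraspanin (134 and 135 against 134 and 126 FPKM). The groups of each of these 3 overlapped. Beside Airn and Slc22a2, the largest changes were in Phlda2, a restrainer of placental growth (10.8 and 12.6 against 6.69 and 6.45 FPKM; log2 change -0.74, SE 0.14; limma adjusted p = 0.27), and in Ddc, the neighbour of Grb10 that decarboxylates DOPA in proximal tubules (7.83 and 6.78 against 3.01 and 5.01 FPKM; log2 change -0.76, SE 0.25; limma adjusted p = 0.62). In both of them the mutant libraries were under the controls.

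Within 250 kb of the 10 rows lay 39 tested genes, Igf2, Dlk1 and both joint rows among them, of which limma called 0 (0.158% over all genes), with a median log2 change of 0.03.

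Like Igf2 and Igf2r, no other tested gene of the IGF pathway passed, and most log2 changes were below 0. Of 22 listed, 20 with a row of their own were tested. With limma 0 passed, and 3 had an unadjusted p under 0.05, 1 higher and 2 lower, beside the same 7.24% of all genes. Changes were below 0 in 15 of 20 and in 5944 of all 13287 genes tested, and the median was -0.19. Groups did not overlap in 8 of the 20, 1 higher and 7 lower, beside 39.8% of all genes tested (22.7% higher and 17.1% lower). Igf1, the other IGF ligand, was at 5.06 and 5.82 FPKM in the controls and at 8.17 and 8.17 FPKM in the mutants (log2 change 0.51, SE 0.14; limma adjusted p = 0.50). Both mutant libraries were above both controls. Irs1, the docking protein of the IGF1 and insulin receptors, was at 9.71 and 11.2 against 6.08 and 5.48 FPKM (log2 change -0.76, SE 0.15; limma adjusted p = 0.28), and Irs2 at 33.9 and 17.4 against 20.3 and 17.9 FPKM, where control replicate 1 was high (log2 change -0.34, SE 0.33; limma adjusted p = 0.80). Igfals, which stabilises IGFs in serum, was at 3.03 and 1.68 against 0.716 and 1.11 FPKM (log2 change -0.79, SE 0.27; limma adjusted p = 0.66). The IGF binding proteins Igfbp7 (211 and 203 against 200 and 188 FPKM), Igfbp4 (166 and 163 against 163 and 153 FPKM) and Igfbp5 (116 and 108 against 105 and 93.8 FPKM) were the most abundant of the list.

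The list of imprint maintenance genes, which includes Dnmt3a, Dnmt3l, Tet1, Tet2 and Tet3, had a median change of 0.01. Of 19 listed, 17 were tested and 0 passed with limma, beside 0.158% of all genes tested. An unadjusted p under 0.05 was reached by 1, Yy1, beside 7.24% of all genes tested. Yy1, a zinc finger protein that binds the Peg3 control region, was at 58.7 and 63.7 FPKM in the controls and at 79.1 and 72.4 FPKM in the mutants (log2 change 0.30, SE 0.09; limma adjusted p = 0.51). Trim28, the corepressor recruited by ZFP57, was at 115 and 113 against 111 and 99.8 FPKM, and the histone methyltransferase gene Ehmt2 at 75.0 and 71.7 against 72.9 and 71.7 FPKM. Mbd3, of the NuRD complex, was at 154 and 164 against 152 and 105 FPKM, with mutant replicate 2 low. Arid4a was at 11.4 and 9.03 against 9.85 and 17.4 FPKM and Arid4b at 13.1 and 15.4 against 16.1 and 18.4 FPKM. Both encode chromatin proteins. Dppa3 was listed at 0 in all 4 libraries.

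**Figure D4:**
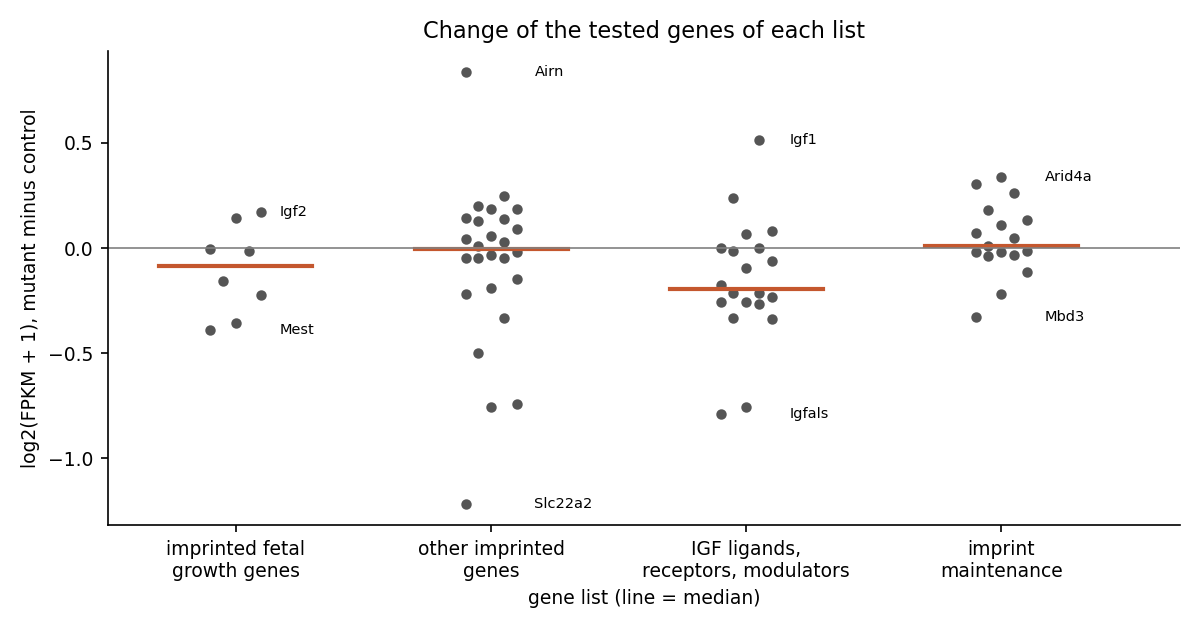
Log2 change from control to mutant of log2(FPKM + 1) for each tested gene with a row of its own (points) and the median (line) in the 4 lists, with the highest and lowest gene of each named. The 8 members lie between -0.39 and 0.17, the other imprinted genes between -1.22 (Slc22a2) and 0.84 (Airn), and 0 points passed the threshold over all genes.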

How the data were processed

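RNA of whole E18.5 kidneys was poly(A)-selected and, per the labels, turned into libraries using a kit sold for DNA. The FPKM values and their intervals were computed by the authors, 1 deposited table per library; the submitters' processing notes name build mm9 and, with no order, Cufflinks 2.1.1, TopHat2 2.0.11, SAMtools 0.1.19 and Bowtie 1.0.0. Their options and annotation were not given in the sources used here. Tables held 26000 to 26488 rows and some loci have other bounds in other libraries, which can move an FPKM.

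Rows were matched by exact symbol and summed where they share it, names missing from any table (22761 of 23852 were in all) and 99 with a row not marked OK were left out, and 400 joint names were kept. For genes reaching 1 FPKM in at least 2 libraries, log2(FPKM + 1) was compared by a linear model with moderated variance and a trend on the mean (limma 3.58.1 under R 4.3.3), with Benjamini-Hochberg adjustment at 0.05, a scale that understates changes of low genes. The fit was tested on simulated data. H19 and Meg3 had no row of their own, so their ratios used the joint rows. Alternatives changed the pseudocount, filter, scaling, trend, treatment of rows and names, a replicate block, and each library left out; with 1 library in a group its spread was taken from the other group. Beside the members, the 4 tested genes of each list with the largest change and the 3 with the highest mean were named. Likeness was the distance over 4 libraries, for members spanning at least 0.4. The members and lists were chosen with earlier results of these data known, and the motifs, figures and 250 kb window after the values were seen. Promoter and miRNA sequences are from RefSeq on GRCm38.p6, and mm9 positions, as the tables give them, were not converted.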

Additional observations from a re-analysis of the deposited data

How the results depend on the processing

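With limma, 0 of the 8 imprinted fetal growth genes with their own row passed under each of the 13 alternatives, as did 0 of the other imprinted, IGF and imprint maintenance genes tested, and the smallest adjusted p of a member was 0.22 (Mest without control replicate 2). Igf2 and Ndn stayed above 0 and Mest, Igf2r, Peg3 and Dlk1 below 0 under all 13. The median change of the members ran from -0.15 without mutant replicate 1 to -0.02 without mutant replicate 2. Scaled to the same sum of named genes, Grb10 was at 0.0285 and Plagl1 at 0.0174. With a library left out, Igf2 ran from 0.04 to 0.30, Dlk1 from -0.64 to -0.07, Mest from -0.59 to -0.19, Igf2r from -0.37 to -0.07, Peg3 from -0.23 to -0.09, Ndn from 0.09 to 0.20, and the log2 difference of Igf2 to Igf2r from 0.22 to 0.59. Values on both sides of 0 came from the others: Grb10 ran from -0.0686 to 0.0593, Plagl1 from -0.106 to 0.0751, the H19,Mir675 row from -0.0812 to 0.157 and the Meg3,Mir1906-1,Mir770 row from -0.326 to 0.178. So did the log2 difference of Igf2 to H19, from -0.0819 to 0.354, and that of Dlk1 to Meg3, from -0.743 to 0.135. Over all genes the 21 calls became 10 without a filter (more genes tested), 11 without a trend, 32 with joint names added to each symbol, 6 with the replicate block, and 0 to 14 with a library left out, with 0 without control replicate 1 and without control replicate 2 and 12 without mutant replicate 1; the cause was not tested. Same-numbered libraries deviated together with a correlation of 0.15 across genes and shared the sex-linked pattern, so the block also follows that pattern. The labels name no shared litter or batch, and the block changed no call among the members. With the block, the unadjusted p of limma was 0.047 for Dlk1 and 0.032 for Mest (adjusted p 0.63 and 0.61). It was above 0.05 for the other members. The share of all genes with an unadjusted p under 0.05 in that fit was not counted. Absolute depth is unknown, so counting error could not be given.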
